A study of Mus musculus with 2 samples.

Results

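Solute carriers are membrane proteins that move amino acids, sugars, nucleosides, metals, ions, vitamins and metabolites across the plasma membrane and the membranes of mitochondria, lysosomes, the endoplasmic reticulum and the Golgi apparatus. Macrophages depend on them for feeding, for recycling what they engulf in lysosomes, and for handling iron, copper and zinc. The genes described here are the well-measured members of this group in nuclear RNA: protein-coding genes with a symbol of Slc followed by a digit that had 100 or more expected counts in both libraries. Of 371 protein-coding Slc genes, 138 were members. A further 10 were left out by name (9 of these also reached 100 counts in both libraries): Slc2a1, Slc7a2, Slc7a11, Slc11a1, Slc11a2, Slc16a1, Slc16a3, Slc25a1, Slc39a14 and Slc40a1. Another 223 had under 100 counts in at least 1 library. The members were chosen by their counts in both libraries, so that their levels are a description and support nothing about solute carriers as a group. Among the members, 3 were classed as not carriers, since they only bear a carrier's name. Slc3a2, a partner subunit of carriers, was kept with the amino acid carriers.

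The cells were macrophages that had been differentiated from the marrow of C57BL/6J mice, used as primary cells. All cells of the 1 group had received Lipid A, the membrane anchor of bacterial endotoxin, at 100 ng/ml over 12 h, had then spent 12 h in washout and were given 100 ng/ml again for 50 min. After removal of ribosomal RNA, total RNA of the nucleoplasmic fraction (also labelled nuclear) was sequenced in 2 libraries, biological replicates 1 and 2, from RNA inputs of 500 ng and 1 µg. Both name the same donor entry, separate cultures are not named, and the replicate and its RNA input cannot be told apart. Unstimulated cells and whole-cell RNA were not analysed here, so that neither a response to Lipid A nor a difference between nucleus and cytoplasm can be read from the values. A level in nuclear RNA says nothing of the amount of mature mRNA or protein.

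The libraries held 20612114 and 22772087 expected counts in replicates 1 and 2, and the members took 1.204% and 1.202% of them. The 8 macrophage markers averaged between 42.6 and 1010 TPM (transcript abundance per length, scaled to a fixed total), with Csf1r, Adgre1 and Lyz2 among them, while the 17 markers of other blood and connective-tissue cells averaged at most 0.455 TPM and 6 had a count of 0 in both libraries. The erythroid anion exchanger Slc4a1, itself a solute carrier, was 1 of those 6. Library sizes were compared after TMM scaling, and a gene was called different between the libraries at a ratio of at least 2-fold. With 1 library against 1 there is no test, and each ratio is the spread between these libraries. In all, 1717 of 16128 genes with at least 10 counts over both libraries were past 2-fold, a share of 10.6%, and 112 of 7844 protein-coding genes that reached 100 counts in each library were, a share of 1.43%. Against those shares, 1 of 138 members was past 2-fold.

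The members covered 40 of 49 annotated Slc families unevenly. The mitochondrial carrier family Slc25 had 27 members of 47 genes, and the nucleotide-sugar carrier family Slc35 had 17 of 27. The zinc importers of Slc39 had 8 of 14, and the glutamine and neutral amino acid carriers of Slc38 had 6 of 11. Other families had few members or none. The organic ion carriers of Slc22 had 2 members of 25 genes, with 17 genes at a count of 0 in both libraries. The sodium-coupled amine and amino acid carriers of Slc6 had 2 of 21, the sodium-glucose family Slc5 had 1 of 13, the vesicular and sialic acid family Slc17 had 1 of 9, and all 3 genes of the phosphate family Slc34 were at a count of 0 in both. Over all families 99 genes were at 0 in both libraries, and 158 had 10 or fewer counts over both. A count of 0 allows up to 3 counts per library, so low expression of these genes was not detectable at this depth.

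**Figure D1:**
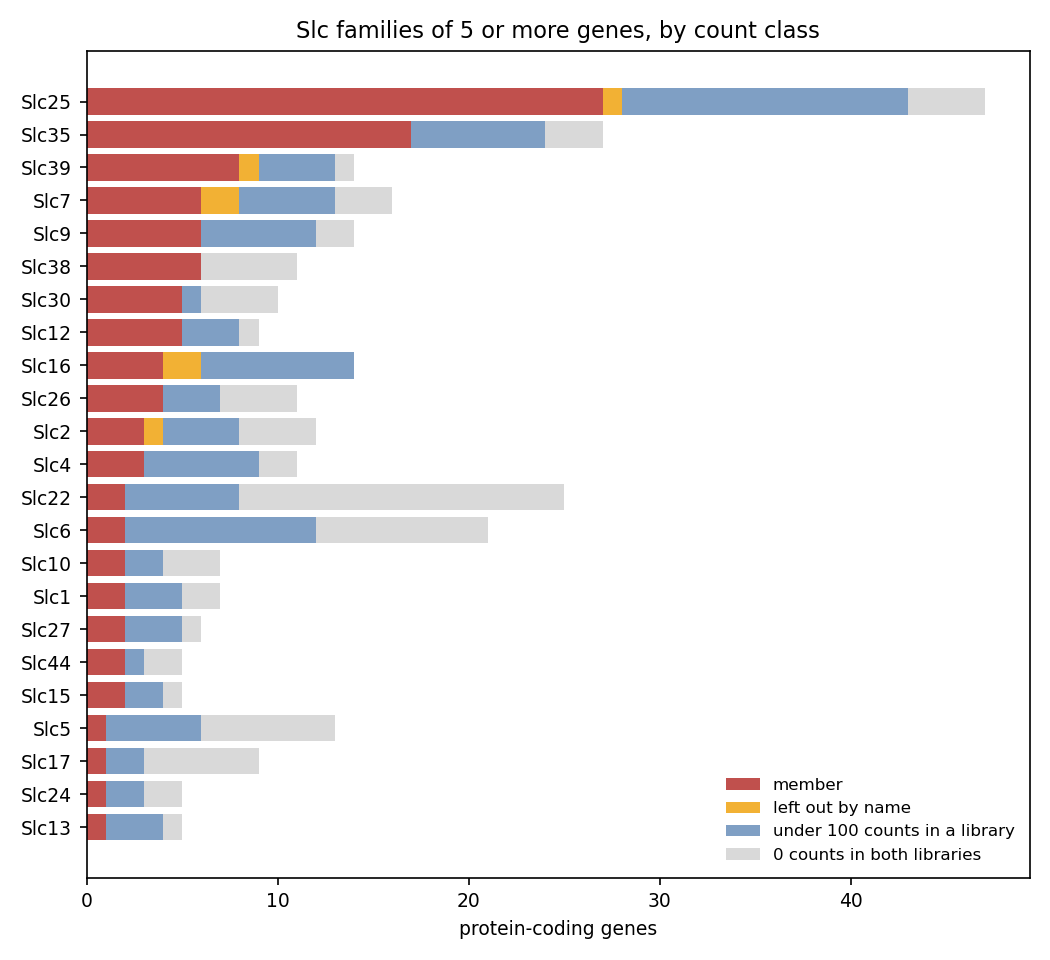
Number of protein-coding genes in each Slc family of 5 or more genes, split into members, genes left out by name, genes under 100 counts in a library and genes at 0 counts in both. Slc25 and Slc35 give the most members (27 and 17), while 17 of 25 Slc22 genes had no count. The 3 members classed as not carriers are counted with the family in their symbol.

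The introns printed next belong to members in which a large share of the gene's TPM was assigned to a transcript that keeps an intron and is not annotated as coding. Each is an intron between coding exons of a protein-coding transcript, and the named transcript keeps it within an exon. Sequences were read from the GENCODE M21 transcript sequences (mm10), run 5′ to 3′ on the gene's strand, and have the first and last pair of bases in capitals, where the splice donor and acceptor lie. In Slc2a6, a facilitative hexose transporter, the intron is at chr2:27023250-27023534 on the minus strand and is 285 bases long. In Slc15a3, a lysosomal peptide and histidine transporter, it is at chr19:10857339-10857629 on the plus strand (291 bases). In Slc1a5, the glutamine importer of the plasma membrane, it is at chr7:16795953-16796023 on the plus strand (71 bases). In Slc27a1, a fatty acid transport protein, the transcript keeps introns at chr8:71579799-71579906 and chr8:71580702-71580766 on the plus strand (108 and 65 bases). In Slc50a1, the mammalian SWEET sugar transporter, it is at chr3:89269951-89270061 on the minus strand (111 bases). In Slc52a2, a riboflavin transporter, the 2 introns are at chr15:76540580-76540671 and chr15:76540796-76540913 on the plus strand (92 and 118 bases).
Slc2a6-205 intron: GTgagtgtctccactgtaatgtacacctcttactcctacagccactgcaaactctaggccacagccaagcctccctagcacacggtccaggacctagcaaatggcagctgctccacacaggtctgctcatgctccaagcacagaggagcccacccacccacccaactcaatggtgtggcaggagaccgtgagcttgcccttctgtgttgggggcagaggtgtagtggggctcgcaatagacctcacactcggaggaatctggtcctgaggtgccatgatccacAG
Slc15a3-203 intron: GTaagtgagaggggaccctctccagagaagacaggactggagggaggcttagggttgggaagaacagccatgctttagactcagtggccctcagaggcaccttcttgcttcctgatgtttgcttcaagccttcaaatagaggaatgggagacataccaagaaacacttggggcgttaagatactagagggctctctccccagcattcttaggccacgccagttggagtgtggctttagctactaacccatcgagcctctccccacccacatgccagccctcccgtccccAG
Slc1a5-202 intron: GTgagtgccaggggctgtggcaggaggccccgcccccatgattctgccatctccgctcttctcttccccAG
Slc27a1-203 intron: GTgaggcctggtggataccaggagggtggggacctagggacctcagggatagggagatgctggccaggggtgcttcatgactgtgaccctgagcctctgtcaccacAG
Slc27a1-203 intron: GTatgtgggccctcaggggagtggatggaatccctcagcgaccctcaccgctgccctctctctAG
Slc50a1-205 intron: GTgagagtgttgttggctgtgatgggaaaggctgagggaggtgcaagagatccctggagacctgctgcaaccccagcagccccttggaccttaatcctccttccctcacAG
Slc52a2-202 intron: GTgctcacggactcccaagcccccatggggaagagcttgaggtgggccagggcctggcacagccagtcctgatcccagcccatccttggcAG
Slc52a2-202 intron: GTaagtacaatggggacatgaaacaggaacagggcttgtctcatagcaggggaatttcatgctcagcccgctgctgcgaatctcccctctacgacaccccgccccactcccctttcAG
All of these begin with GT and end with AG. The files hold estimates per transcript and no read positions, so that reads within these introns were not counted apart.

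Levels are given per length, as TPM. The members' median was 7.92 TPM (7.57 and 7.91 TPM in replicates 1 and 2), beside 7.85 TPM for the 7706 other protein-coding genes that also reached 100 counts in both libraries and 3.59 TPM for all protein-coding genes with at least 10 counts in total. Levels ran from 0.685 to 253 TPM. There were 23 members at 30 TPM or more, 34 between 10 and 30 TPM and 81 under 10 TPM, of which 13 were under 2 TPM. The 90 percentile of measured protein-coding genes lay at 28.7 TPM, and 26 members (18.8%) averaged above it. Among protein-coding genes that passed the same limit of 100 counts as the members, the 90 percentile was 43.5 TPM, and 10 members (7.25%) averaged above that. Only 3 members exceeded 100 TPM in both libraries (Slc6a6, Slc15a3 and Slc3a2). The 10 highest members held 43.0% and 46.6% of the members' summed TPM in replicates 1 and 2.

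**Figure D2:**
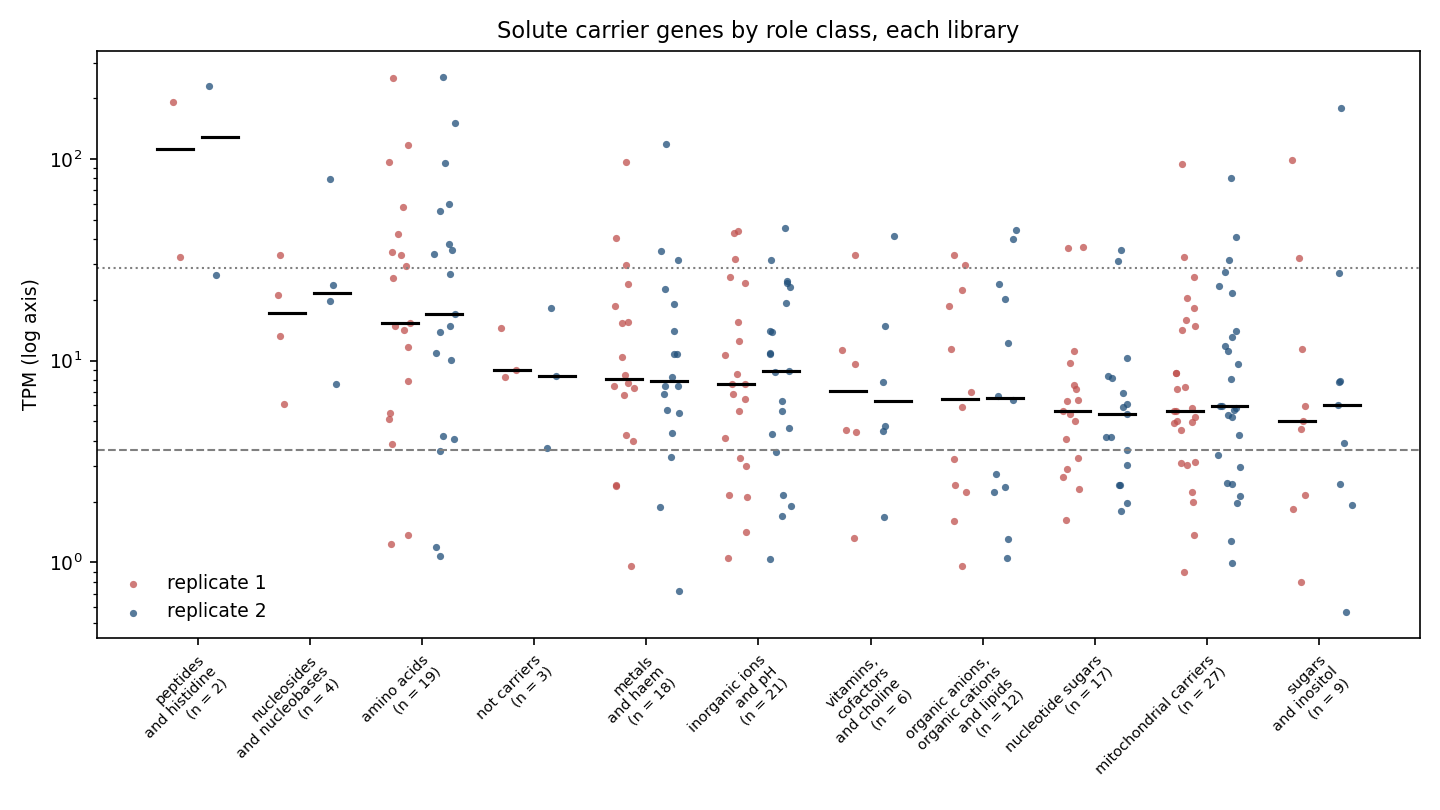
TPM (log axis) of each of the 138 members by role class, replicate 1 left and replicate 2 right in each class, with black bars at the class medians; the dashed line is the median (3.59 TPM) and the dotted line the 90 percentile (28.7 TPM) of measured protein-coding genes. The per-library medians of the classes with more than 5 members lie between 5.01 and 17.1 TPM. The members over 100 TPM in a library belong to the amino acid, peptide, sugar and metal classes.

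The amino acid carriers had the highest median of the classes with more than 5 members, 16.2 TPM over 19 members (15.3 and 17.1 TPM in replicates 1 and 2), and 8 of the 19 lay above 28.7 TPM and 5 above 43.5 TPM. Slc6a6, the sodium-dependent taurine transporter (chromosome 6, 91684053 to 91759066), was the highest member of all at 252.82 and 253.47 TPM in replicates 1 and 2, from 37705 and 35550 counts. Its level was almost the same in both libraries. Its coding transcript Slc6a6-201 made up 73.1% and 65.5% of the gene's transcript TPM. Slc3a2, the CD98 heavy chain that brings light chains of the Slc7 family to the cell surface, had 117.04 and 150.77 TPM. Among its light chains, Slc7a8 (neutral amino acids) had 42.66 and 54.91 TPM and Slc7a7 (cationic amino acids and leucine with sodium) had 7.90 and 10.91 TPM. Slc7a5, the large neutral amino acid light chain, had 3.86 and 3.57 TPM, and Slc7a6 had 1.37 and 1.07 TPM. The heavy chain was thus above each of these 4 light chains in both libraries, and the order Slc7a8, Slc7a7, Slc7a5, Slc7a6 was the same in both.

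Slc43a2, a sodium-independent uniporter of branched-chain amino acids and phenylalanine, had 96.27 and 95.31 TPM in replicates 1 and 2. In the Slc38 family of neutral amino acid carriers the 6 members had a median of 32.3 TPM, while the other 5 of its 11 genes had a count of 0 in both libraries. Slc38a6 had 57.72 and 59.90 TPM, and the glutamine carriers Slc38a1 and Slc38a2 lay close together, at 33.56 and 37.70 TPM for Slc38a1 and at 34.52 and 35.18 TPM for Slc38a2. Their order differed between the libraries, so that they are not separated beyond the spread. The other main glutamine importer, Slc1a5, had 5.13 and 4.11 TPM, below both in each library. Slc7a1, the arginine and lysine importer, had 14.14 and 13.89 TPM, and Slc6a8, the creatine transporter, had 29.62 and 26.93 TPM. The other members of the class had their lowest values in Slc1a4 (1.24 and 1.19 TPM) and Slc7a6.

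The peptide and histidine carriers had 2 members of 5 genes. Slc15a3 (chromosome 19, 10839727 to 10859362), a proton-coupled carrier of the endolysosome, was the second-highest member, with 191.85 and 228.92 TPM in replicates 1 and 2 from 18689 and 23926 counts. Its paralogue Slc15a4, which is needed for signalling by endosomal Toll-like receptors, was listed at 32.74 and 26.74 TPM. Those TPM values run against its counts, which were 925 and 1795. In replicate 1 a processed transcript of 166 bases, Slc15a4-211, was listed at 19.21 TPM from 4.36 counts, and in replicate 2 it was listed at 3.43 TPM from 1.69 counts. Without transcripts under 300 bases Slc15a4 came to 13.52 and 21.91 TPM, in the order of its counts, and on either reckoning Slc15a3 was the higher paralogue in both libraries. Slc15a4 was the only member with over 50% of its TPM in transcripts under 300 bases in a library. Slc16a7, a monocarboxylate carrier, was the only other one with over 10%. The adaptor through which Slc15a4 signals, annotated as 5430427O19Rik, had 14.43 and 10.36 TPM.

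A list of carriers placed in the lysosome, drawn from several classes, held 12 annotated genes, of which 10 were members. They were Slc15a3, Slc15a4, Slc17a5, Slc26a11, Slc29a3, Slc36a1, Slc38a7, Slc38a9, Slc46a3 and Slc48a1, and their median was 14.0 TPM (15.1 and 12.8 TPM in replicates 1 and 2). Slc29a3, which returns nucleosides from the lysosome, had 21.09 and 23.84 TPM. Slc38a7, a glutamine exporter of the lysosome, had 15.34 and 17.09 TPM, and Slc38a9, which senses lysosomal arginine for mTORC1, had 14.78 TPM in both libraries. Slc48a1, which moves haem out of phagolysosomes when red cells are digested, had 15.49 and 10.77 TPM, and Slc36a1, a proton-coupled exporter of small amino acids, had 11.67 and 10.06 TPM. Slc17a5, the sialic acid exporter, had 6.97 and 6.35 TPM. These were chosen as a list with earlier results of the data known, and no comparison with other genes was made from it.

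Sugar and inositol carriers had 9 members of 33 genes, with a median of 5.52 TPM, and 1 member stood far above the rest. Slc2a6 (chromosome 2, 27021363 to 27027998, minus strand) had 98.36 and 178.75 TPM in replicates 1 and 2, from 6934 and 13285 counts. It was 1.83-fold higher in replicate 2 on the count scale. Slc37a2, a sugar-phosphate antiporter of the endoplasmic reticulum, had 32.13 and 27.08 TPM, and its relatives Slc37a3 and Slc37a1 had 5.01 and 6.03 TPM and 2.16 and 2.45 TPM. Slc50a1 had 11.47 and 7.97 TPM. The urate transporter Slc2a9 had 4.56 and 3.90 TPM, and the intracellular hexose transporter Slc2a8 had 1.83 and 1.92 TPM. The myo-inositol carrier Slc5a3 was the lowest member of all, at 0.80 and 0.57 TPM; its exons overlap those of Mrps6 on the same strand, so that reads of the 2 genes are hard to tell apart.

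Nucleoside and nucleobase carriers held the 1 member past 2-fold. Slc28a2, a sodium-coupled importer of purine nucleosides (chromosome 2, 122426477 to 122461137), had 33.35 and 79.94 TPM in replicates 1 and 2, from 3037 and 7326 counts. The count ratio made it 2.30-fold higher in replicate 2, a log2 ratio of -1.20 with a 95% counting interval of -1.27 to -1.14. The interval covers counting error alone, and with 1 library of each RNA input the difference has no replicate check. All 3 of its main coding transcripts were higher in replicate 2, and Slc28a2-202 was the highest in both, with 22.02 and 46.08 TPM. The neighbouring gene Gm14085 (chromosome 2, 122484941 to 122528040) had 2.20 and 14.57 counts. The deposited posterior SD of the count was 0.57 and 1.37 counts for each of the pair. This SD scores how reads were assigned and does not count the reads that the pair share. The equilibrative nucleoside carrier Slc29a1 had 6.12 and 7.64 TPM, and Slc43a3, a purine nucleobase carrier, had 13.28 and 19.70 TPM. All 4 members of the class had a higher scaled count in replicate 2, with log2 ratios between -1.20 and -0.15. So had 3558 of the 7844 protein-coding genes that reached 100 counts in each library.

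Of the metal and haem carriers, 4 were left out by name (Slc11a1, Slc11a2, Slc39a14 and Slc40a1), and among those kept the highest were copper and zinc carriers. Slc31a2, an intracellular copper transporter related to the importer Slc31a1, had 96.59 and 118.00 TPM in replicates 1 and 2, against 23.88 and 22.75 TPM for Slc31a1, and the values of the 2 genes did not overlap. The zinc importer Slc39a1 had 40.49 and 35.02 TPM, and Slc39a7, which releases zinc from the endoplasmic reticulum, had 29.80 and 31.46 TPM. Of the zinc carriers that export zinc or load it into vesicles, Slc30a7 had 15.46 and 14.02 TPM, Slc30a5 had 10.45 and 8.34 TPM, and the plasma-membrane exporter Slc30a1 had 7.53 and 10.79 TPM. Slc30a1 and Slc30a5 changed places between the libraries. The class as a whole had 18 members of 33 genes and a median of 8.59 TPM. Of the metallothioneins, which buffer zinc and copper in the cell, Mt1 had 71 and 43 counts and Mt2 had 9 and 4 counts.

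The class of mitochondrial carriers took in the whole Slc25 family, whether or not a gene serves mitochondria. It was the largest class, with 27 members and a median of 5.56 TPM. Slc25a3, the phosphate carrier that feeds ATP synthase, stood apart at 94.81 and 80.87 TPM in replicates 1 and 2. The mitoferrins, which bring iron into mitochondria, were both present: Slc25a37 had 32.53 and 41.10 TPM and Slc25a28 had 14.15 and 13.09 TPM. Of the ADP/ATP exchangers, Slc25a5 had 20.53 and 27.41 TPM and Slc25a4, the form of heart and muscle, had 5.05 and 5.36 TPM. Within both pairs the order was the same in both libraries and the values did not overlap. The glutamate carrier Slc25a22 had 15.89 and 31.66 TPM and the largest ratio of the class, a log2 ratio of -0.74. The aspartate-glutamate exchangers Slc25a12 and Slc25a13 had 7.20 and 14.04 TPM and 1.99 and 2.46 TPM, and the NAD carrier Slc25a51 had 14.82 and 11.13 TPM. The dicarboxylate carrier Slc25a10 (8.70 and 11.88 TPM) and the oxoglutarate carrier Slc25a11 (8.68 and 9.63 TPM) were not separated in replicate 1.

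Carriers of inorganic ions and pH had 21 members, with a median of 8.24 TPM and no member over 50 TPM. Slc8b1, which exports calcium from mitochondria in exchange for sodium, had 32.05 and 45.25 TPM in replicates 1 and 2. Slc20a1, a sodium-phosphate importer, had 43.74 and 31.71 TPM, far above its paralogue Slc20a2 (2.15 and 1.90 TPM). The endosomal sodium-proton exchanger Slc9a9 had 42.70 and 24.90 TPM and was 1.70-fold higher in replicate 1 by counts. The organellar exchanger Slc9a8 had 26.05 and 24.36 TPM. Of the potassium-chloride cotransporters, which let cells shed volume, Slc12a7 had 7.68 and 8.80 TPM and Slc12a4 had 6.86 and 8.84 TPM. The sodium-potassium-chloride importer Slc12a2 had 1.42 and 1.04 TPM, below both in each library. Slc12a9 had 7.64 and 13.96 TPM and was 1.82-fold higher in replicate 2. The sodium-bicarbonate importer Slc4a7 had 12.52 and 10.82 TPM.

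Nucleotide-sugar carriers supply the Golgi apparatus and endoplasmic reticulum with donors for glycosylation and sulfation. Their class took in the whole Slc35 family, whether or not a gene carries a nucleotide sugar. It had 17 members and a median of 5.56 TPM. Slc35f6 had 36.04 and 35.55 TPM in replicates 1 and 2. Slc35b2, which carries the sulfate donor PAPS, had 36.41 and 31.04 TPM, so that the order of these 2 differed between the libraries. The next member, Slc35a4, had 11.13 and 10.30 TPM, and no other was above these 3 in either library. Slc35b1, through which ATP enters the endoplasmic reticulum, had 9.75 and 8.23 TPM. Slc35d1, a carrier of UDP-glucuronic acid and UDP-N-acetylgalactosamine, had 4.09 and 2.42 TPM and was 1.79-fold higher in replicate 1 by counts, the largest ratio in that direction among the members.

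Carriers of organic anions, organic cations and lipids had 12 members of 76 genes. Slc16a10, a carrier of aromatic amino acids, had 33.58 and 44.38 TPM in replicates 1 and 2, and Slc27a1 had 29.65 and 40.15 TPM. Slc16a6 had 22.52 and 23.93 TPM and Slc13a3, a sodium-coupled carrier of succinate and other dicarboxylates, had 18.57 and 20.17 TPM. Slc10a1, the bile acid importer best known from hepatocytes, was listed at 2.43 and 2.75 TPM from 112 and 128 counts, near the count limit. Its transcripts Slc10a1-201 and Slc10a1-203 had 1.83 and 1.46 TPM and 0.59 and 1.30 TPM. In the index-based table, made from the reads in another way, they had 0 and 0.15 TPM and 0.87 and 0.51 TPM. Vitamin, cofactor and choline carriers had 6 members. Slc23a2, the vitamin C importer, had 33.30 and 41.71 TPM, and the choline carriers Slc44a2 and Slc44a1 had 11.33 and 14.91 TPM and 9.59 and 7.85 TPM. Slc52a2 was low, at 1.32 and 1.68 TPM.

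The 3 members classed as not carriers were Slc9a3r1, Slc7a6os and Slc4a1ap. Slc9a3r1, a scaffold that ties membrane carriers to ezrin, radixin and moesin, had 14.48 and 18.28 TPM in replicates 1 and 2. Slc7a6os had 9.01 and 8.44 TPM. Slc4a1ap was listed at 8.27 and 3.70 TPM although its counts were 278 and 244, and Slc4a1ap-204, a retained-intron transcript of 495 bases, was listed at 3.31 and 0.13 TPM. Slc4a1ap and Slc15a4 were the only members whose TPM ratio and count ratio differed by more than 1.5-fold.

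Partner genes of the carriers were read from a list of 33 names, of which 32 are annotated and 25 had 100 or more counts in both libraries. Their median log2 ratio was 0.12, and 1 was past 2-fold (Mt2, at the low counts above). Moesin (Msn), which links membrane proteins to actin, was the highest at 214.70 and 182.05 TPM in replicates 1 and 2, with its relatives radixin (Rdx) at 7.61 and 6.51 TPM and ezrin (Ezr) at 3.53 and 3.29 TPM. Wnk1, the kinase at the head of the pathway that controls the Slc12 cotransporters, had 125.48 and 98.20 TPM. Of the kinases below it, Oxsr1 had 8.82 and 6.68 TPM and Stk39 had 21 and 22 counts. The 6 transcription factors of the list ran from Nfe2l2, of the oxidative stress response, at 132.35 and 129.89 TPM and Atf4, of the amino acid response, at 67.31 and 66.39 TPM, through Tfe3 (25.50 and 24.60 TPM), Mitf (16.77 and 20.60 TPM) and Mtf1 (6.52 and 5.62 TPM), to Tfeb at 3.78 and 5.61 TPM. Ucp2, an uncoupling protein of the mitochondrial carrier fold, had 22.60 and 37.83 TPM from 1953 and 1860 counts.

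The libraries were close for most members, as they were for the other protein-coding genes at 100 or more counts. The members' median log2 ratio of replicate 1 over replicate 2 was 0.01, with an SD of 0.35 over the genes, beside a median of 0.04 and an SD of 0.36 in the other protein-coding genes at 100 or more counts. By scaled counts 71 members were higher in replicate 1 and 67 in replicate 2, beside 4215 and 3491 of the 7706 other genes. There were 83 members within 1.2-fold, a count not made for the other genes. The quartiles of the log2 ratio were -0.22 and 0.21 in the members and -0.20 and 0.25 in the 7706 other genes. Over 1.5-fold were 10 members (7.25%), beside 9.71% of all protein-coding genes that reached 100 counts in each library and 25.8% of all 16128 genes. Those higher in replicate 2 were Slc28a2, Slc15a4 (log2 ratio -0.89), Slc2a6 (-0.87), Slc12a9 (-0.87), Slc26a6 (-0.80), Slc25a22 (-0.74) and Slc26a1 (-0.62), and those higher in replicate 1 were Slc35d1 (0.84), Slc9a9 (0.76) and Slc20a1 (0.62). For Slc26a6, an anion exchanger, this rests on 106 and 193 counts, near the count limit of the members.

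**Figure D3:**
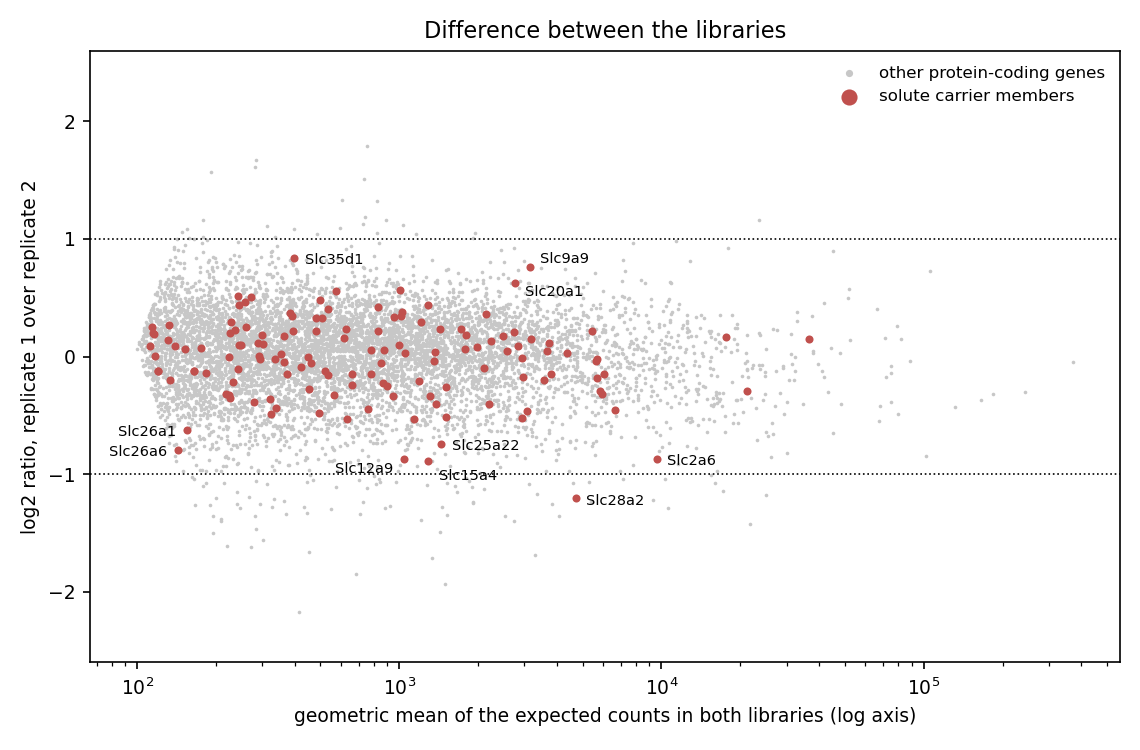
Log2 ratio of scaled counts, replicate 1 over replicate 2, against the geometric mean of the counts (log axis) for the 138 members (red) and the other protein-coding genes that reached 100 counts in each (grey); dotted lines mark 2-fold. The members lie within the grey cloud, the 10 over 1.5-fold are named, and Slc28a2 alone is past 2-fold, at -1.20.

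Members just inside the limit of 100 counts were Slc26a6, Slc25a32 (a carrier of folate and FAD; 122 and 107 counts in replicates 1 and 2), Slc25a20 (the carnitine-acylcarnitine carrier; 121 and 110), Slc25a16 (113 and 111) and Slc41a1 (a magnesium carrier; 121 and 111). Just outside were Slc25a26 (the S-adenosylmethionine carrier; 96 and 118 counts), Slc37a4 (the glucose-6-phosphate carrier; 116 and 87), Slc17a9 (the vesicular nucleotide carrier; 117 and 85), Slc41a3 (85 and 104) and the zinc importer Slc39a8 (92 and 80). The levels on both sides overlapped, from 0.72 to 4.33 TPM inside and from 0.72 to 2.23 TPM outside.

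Transcript makeup was not used to choose the members. GENCODE types some transcripts of coding genes as retained intron, as nonsense-mediated decay (a stop codon placed so that the RNA would be degraded) or as processed transcript (no open reading frame assigned). Of the members' summed TPM, 72.2% and 69.9% lay in transcripts typed as coding in replicates 1 and 2, 17.7% and 18.7% in retained introns, 7.98% and 9.91% in processed transcripts and 2.01% and 1.52% in nonsense-mediated decay. A retained-intron transcript is annotated for 88 of 138 members. The median retained-intron share of these 88 was 19.6% of the gene's transcript TPM (17.9% and 19.3% in replicates 1 and 2), beside 21.4% in the 5067 other protein-coding genes with such a transcript. In 10 of the 88 (11.4%) the mean share was over 50%, beside 11.3% of the other genes. In nuclear RNA, RNA not yet spliced and an intron kept for good cannot be told apart from these tables.

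**Figure D4:**
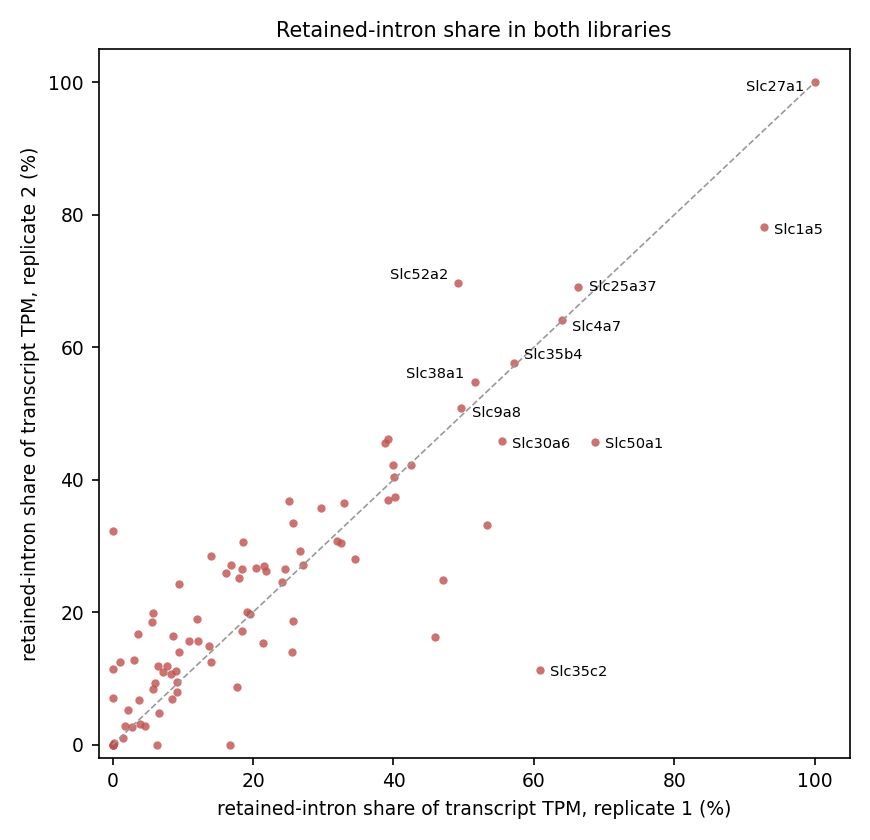
Share of each gene's transcript TPM in retained-intron transcripts, replicate 1 against replicate 2, for the 88 members with such a transcript, with the line of equal shares. The 10 highest mean shares are named, with Slc27a1 at 100% in both libraries; Slc35c2 is named for its distance from the line (60.8% and 11.3%).

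Slc27a1 had the highest share. All of its TPM was assigned to 3 retained-intron transcripts, Slc27a1-202, Slc27a1-203 and Slc27a1-205, with 12.45, 6.07 and 11.13 TPM in replicate 1 and 13.49, 9.04 and 17.62 TPM in replicate 2, and its coding transcripts were listed at 0. The index-based table, made from the reads in another way, gave 90.8% and 91.1%. Slc1a5 had shares of 92.8% and 78.1%, with Slc1a5-202, whose kept intron of 71 bases is printed above, at 4.60 and 3.04 TPM, against 0.37 and 0.90 TPM for the coding Slc1a5-201. The next were Slc25a37 (66.3% and 69.1%), Slc4a7 (63.9% and 64.0%), Slc52a2 (49.2% and 69.6%), Slc35b4 (57.2% and 57.7%), Slc50a1 (68.7% and 45.7%), Slc38a1 (51.6% and 54.7%), Slc30a6 (55.4% and 45.8%) and Slc9a8 (49.6% and 50.8%). Of these 10, 7 also had a mean share over 50% in the index-based table, where Slc25a37 came to 46.0% and 35.5% in replicates 1 and 2, and the mean share was 44.1% in Slc9a8 and 49.4% in Slc30a6. By transcript counts, which weigh long transcripts more, 4 of the 10 were over 50%, and the mean share was 27.0% in Slc4a7 and 26.2% in Slc30a6. In TPM of the alignment-based table, shares were close in both libraries for Slc27a1, Slc25a37, Slc4a7, Slc35b4, Slc38a1 and Slc9a8. They moved more for Slc1a5, Slc52a2, Slc50a1 and Slc30a6, which had between 170 and 430 counts per library. In Slc50a1 the transcript with the printed intron of 111 bases, Slc50a1-205, had 5.50 and 2.63 TPM, and the coding Slc50a1-201 had 2.53 and 3.71 TPM, so that a different one led in each library. Slc52a2-202, which keeps both printed introns, rested on 57.27 and 107.90 counts. The largest gap between the libraries was in Slc35c2, where 75.20 and 7.67 counts of Slc35c2-205 moved the share.

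Among the highest members, Slc15a3 had a coding transcript first by TPM and a retained-intron transcript second. Slc15a3-201 had 126.79 and 143.16 TPM in replicates 1 and 2, and Slc15a3-203, which keeps the printed intron of 291 bases, had 63.12 and 83.67 TPM, or 32.9% and 36.5% of the gene. By counts the order was the reverse, with 9734 and 13371 counts for the longer Slc15a3-203 and 8945 and 10542 for Slc15a3-201. Slc25a3 was alike, with 40.79 and 35.58 TPM for the coding Slc25a3-201 and 23.53 and 21.36 TPM for the retained-intron Slc25a3-208, which had more counts. Slc31a2 was at the other end, with all of its TPM in the coding Slc31a2-201.

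The highest transcript by TPM was non-coding in both libraries in 12 members (8.70%), beside 8.63% of the other genes. In the index-based table the shares were 14.5% of members (20, of which 9 are among the 12) and 16.6% of the other genes. The 12 were Slc2a6, Slc25a37, Slc38a1, Slc27a1, Slc9a8, Slc25a28, Slc16a7, Slc4a7, Slc25a12, Slc35b1, Slc1a5 and Slc35b4, of which Slc25a37, Slc38a1 and Slc35b1 had a coding lead in at least 1 library in the index-based table. In Slc2a6 the processed transcript Slc2a6-205, which keeps the printed intron of 285 bases, had 38.42 and 71.21 TPM in replicates 1 and 2, the coding Slc2a6-201 had 32.68 and 55.57 TPM, and the processed transcript Slc2a6-203 had 25.12 and 49.20 TPM. Each of the 3 was higher in replicate 2, and their shares moved little (39.1% and 39.8% for Slc2a6-205), so that the difference of Slc2a6 between the libraries was spread over its transcripts. In Slc25a37 the retained-intron transcript Slc25a37-203 held 21.58 and 28.42 TPM. In Slc25a28, the other mitoferrin, the processed transcript Slc25a28-203 held 9.48 and 7.54 TPM, or 66.9% and 57.6% of the gene.

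**Figure D5:**
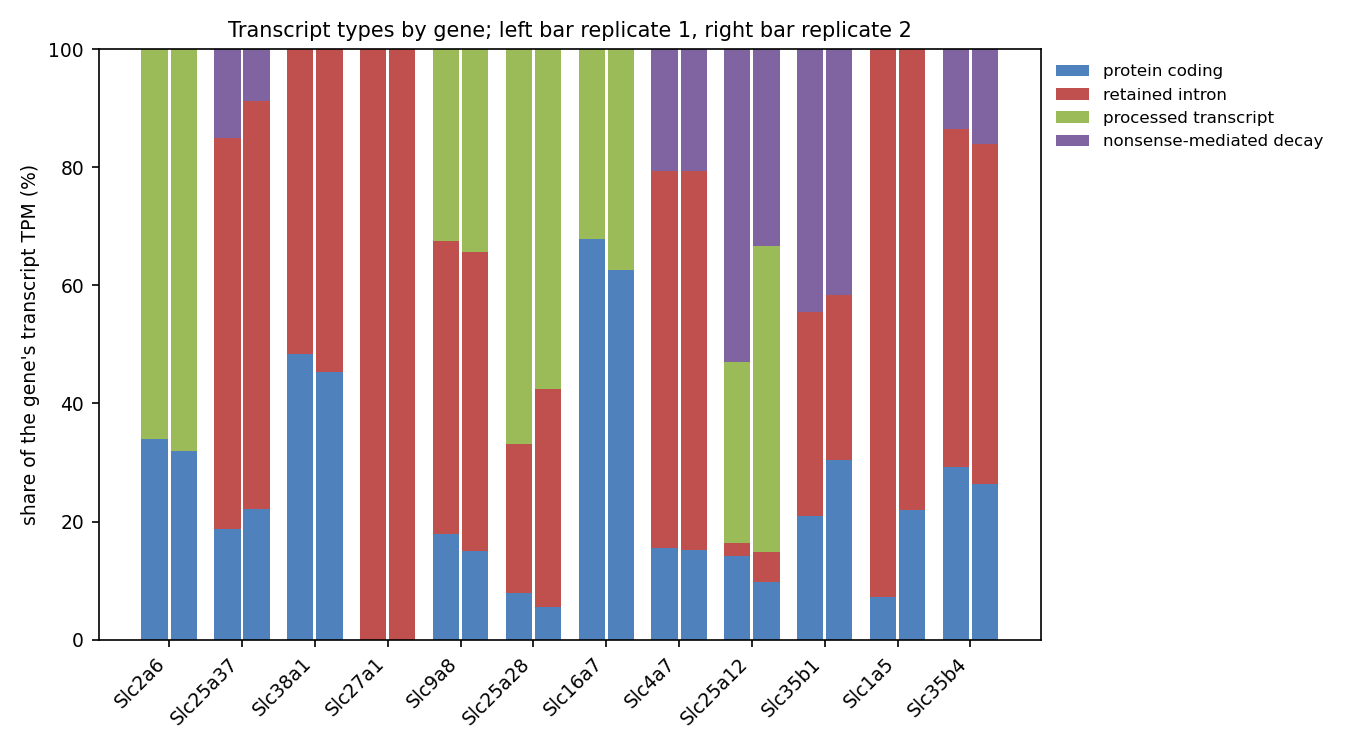
Share of the gene's transcript TPM by annotated transcript type for the 12 members whose highest transcript is non-coding in both libraries, ordered by level, with replicate 1 as the left bar and replicate 2 as the right bar of each pair. For example, retained introns fill most of Slc27a1, Slc1a5 and Slc25a37, processed transcripts most of Slc2a6 and Slc25a28, and coding transcripts stay the majority only in Slc16a7.

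In Slc25a12 and Slc35b1 a nonsense-mediated decay transcript led, with 3.81 and 4.67 TPM for Slc25a12-207 and 4.34 and 3.42 TPM for Slc35b1-202 in replicates 1 and 2. Slc16a7 is the weakest case, since its leading transcript Slc16a7-203 is 292 bases long and rested on 10 and 17 counts. Over all members the same transcript led in both libraries in 118 of 138 (85.5%), beside 84.8% of the other genes, and 3 members have a single annotated transcript. The median number of annotated transcripts was 5 per member and 6 per other gene, and the median gene span was 27.0 kb and 27.8 kb.

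By the deposited posterior SD, the uncertainty in dividing shared reads was small beside the gene counts of most members. This SD was 0 counts in both libraries for 94 members and over 1% of the count for 2. These were Slc24a5, a potassium-dependent sodium-calcium exchanger whose exons overlap Myef2 (6.66%), and the carnitine carrier Slc22a5 (1.42%). Exons of 45 members overlap another annotated gene, 8 of them on the same strand. Use of strand in counting is not stated in the labels or the file headers, so counts of those 45 may include reads of the other gene. Slc15a3 (with Tmem132a), Slc39a13 (with Psmc3) and Slc25a18 (with Atp6v1e1) are among them.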

How the data were processed

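The 2 libraries of 1 group were analysed, with depths given above. Per the file headers and the notes deposited with the files, all tables use mm10 and GENCODE M21, and replicates were not pooled. The gene table and 1 transcript table come from transcriptome alignments, and a second, index-based transcript table was made directly from reads. The sources used here name no tools or versions for these steps. The authors deposited expected counts, which divide shared reads among transcripts and were rounded to whole numbers before scaling and ratios. The deposited TPM divides counts by effective length and scales a table to a fixed total, so short transcripts weigh heavily. FPKM was deposited by the authors too and served as an alternative. The posterior SD of a count is a score of read assignment deposited by the authors.

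Rows naming no annotated gene (0.144% and 0.081% of counts) were left out. TMM factors came from edgeR 4.0.16 in R 4.3.3, and ratios of scaled counts had 0.5 counts added. The ratio calculation was tested on simulated data. A count of 100 has a Poisson coefficient of variation of 10%. Intervals and floors cover counting error only, since reads are not independent molecules. A p-value was not computed, because 1 library against 1 leaves no residual degrees of freedom.

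Role classes follow gene families, and names of roles come from general knowledge, so that a class name need not describe each gene in it. Genes named were, per role class, the 2 with the highest TPM and the 1 with the largest ratio; all past 2-fold; the 10 highest by TPM and by retained-intron share; all with a non-coding leading transcript; 5 on each side of the count limit; and 5 partners with the highest TPM and any past 2-fold. Other genes named were chosen after their values were seen. The members and lists were chosen with earlier results of these data known. Values of some single members are not reported here.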

Additional observations from a re-analysis of the deposited data

How the results depend on the processing

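No paired analysis was possible because there is 1 group with 1 library per replicate number. The median level of 7.92 TPM was 4.28 TPM in the index-based table. Index-based TPM over alignment-based TPM was 0.658 and 0.314 in replicates 1 and 2 for the members. For the 7706 other protein-coding genes that reached 100 counts in both libraries it was 0.671 and 0.316. The lower level was thus not even over the libraries. The median was 36.8 TPM after rescaling to protein-coding genes alone, 6.58 TPM with a limit of 50 counts and 9.72 TPM with 200 counts. It was 6.53 TPM over members whose exons overlap no other gene, and ranged from 7.57 to 7.91 TPM with a replicate left out. The 26 members above the 90 percentile became 10 when the percentile was taken over coding genes that reached 100 counts in each library, and were 24 to 26 with a replicate left out. The median retained-intron share of 19.6% was 24.9% in the index-based table, 10.2% by transcript counts, 21.3% with a limit of 200 counts and 17.8% without members that overlap another gene, and 17.9% to 19.3% with a replicate left out. The 12 members with a non-coding leading transcript became 20 in the index-based table, which shares 9 of them, and 9 by transcript counts, which shares 7; with a replicate left out they were 16 to 20. The cause of these shifts was not tested, apart from those that follow from the setting itself.

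Slc28a2 was the 1 member past 2-fold under library totals, DESeq2 size factors (DESeq2 1.42.0), the index-based table, 5 added counts, no count filter and without overlapping members. The members' median log2 ratio lay between -0.03 and 0.09 over these. Leaving out transcripts under 300 bases gave a median of 7.80 TPM and a retained-intron share of 19.7%. That setting and the one on overlapping genes were chosen after seeing the data. Of 131 values of single genes, 62 moved by more than the spread between libraries in the index-based table, as did the 11 class medians. Levels among these values carry the uneven drop between libraries given above. With 2 libraries of 1 group, the spread rests on 1 difference per gene between libraries of different RNA input, and at 100 counts the counting error alone is 10%.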
